A study of Homo sapiens with 16 samples.

Results

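The proteasome subunit genes were taken as all genes whose symbol is PSMA, PSMB, PSMC or PSMD followed by a number, together with PSME1, PSME2, PSME3, PSMF1 and POMP. The rule, which uses names and no measured value, gave 44 of the 60623 genes in the data, 19 of the core particle (PSMA and PSMB), 20 of the cap (PSMC and PSMD) and 5 others. They were followed in 2 human tumour cell lines of a gut-liver chip, Caco-2 from colon as the gut cell and HepG2 from liver as the liver cell. Each line was mono-cultured, or co-cultured with the other line in connected compartments, and each culture was kept without or with 1 mM free fatty acids (FFAs, palmitic and oleic acid), which gave 8 groups of 2 libraries, 4 groups per line. The labels place sampling after 1 day, and the paper describes mRNA-seq both after 1 day and after a longer FFAs treatment. The paper states at least 2 independent experiments for its mRNA-seq but does not match them to libraries. Nothing in the labels ties the replicates to separate cultures, so the p-values measure the spread between libraries only. Both lines are tumour cells, so no group holds normal gut or liver cells, and the co-culture libraries are those of 1 line at a time.

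The proteasome is the protease that degrades proteins tagged with ubiquitin. Its core particle is a barrel of stacked rings, with PSMA (alpha) subunits in the outer rings and PSMB (beta) subunits, some of them proteolytic, in the inner rings. The cap binds the barrel's ends, where the lid and base subunits bind and cut off the ubiquitin chains and the ring of PSMC ATPases unfolds the protein. PSME1, PSME2 and PSME3 form other caps that activate the core without ATP, PSMF1 encodes an inhibitor of the core, and POMP is the chaperone under which new core particles mature. Interferon raises PSMB8, PSMB9 and PSMB10, whose products replace the catalytic PSMB5, PSMB6 and PSMB7 in the immunoproteasome, along with PSME1 and PSME2.

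The 16 libraries were read on an Oxford Nanopore device and held 49634 to 1657430 reads assigned to genes. Levels are given in CPM, reads of a gene scaled to 1000000 reads of its library, and 1 read stood for 0.603 to 20.1 CPM. The shallowest library was replicate 2 of co-cultured HepG2 with FFAs, and its partner held 147096 reads. All 44 genes were found in the annotation. PSMA8 and PSMB11, subunits of testis and thymus, had 0 of 9841405 reads, which allows a level of up to 0.305 CPM, by counting error only, and the other 42 genes passed the filter of 1 CPM in every fit. In the check of the labels, 12 of 16 liver genes separated the lines without overlap towards HepG2 and 1 towards Caco-2, and of 16 intestine genes 5 did so towards Caco-2 and 1 towards HepG2. CDX1 had no read in any library, and CDH17 lay between 18.5 and 49.5 CPM in Caco-2 and had no read in HepG2. Of 6 immune-cell markers, PTPRC and HLA-DRA had no read in any library, and the summed level of the 6 was 71.1 to 108 CPM in Caco-2 and 890 to 1237 CPM in HepG2, through CD74 and LYZ. Of 5 fibroblast markers none had a read in HepG2, and their sum was 2.82 to 12.8 CPM in Caco-2.

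More members differed between the 2 lines than with any treatment, and the same held over all genes tested. The line contrast sets 8 libraries against 8, and the treatment contrasts set fewer. HepG2 held more mRNA for the inhibitor PSMF1, for the activator pair PSME1 and PSME2, for the alpha subunits PSMA6 and PSMA5 and for the beta subunits PSMB5 and PSMB1, while the maturation factor POMP was lower. Together the 44 genes took 5763 to 6800 CPM in Caco-2 (median 6205, n = 8) and 7739 to 9183 CPM in HepG2 (median 8115, n = 8), ranges that do not overlap. In the fit of log2(CPM + 1) over all 16 libraries (limma, Benjamini-Hochberg adjusted p under 0.05), 22 of the 42 members differed between the lines averaged over the 4 conditions, against 30.3% of the 17544 genes tested. Of these, 18 were higher in HepG2, against 12.5% of all genes, and 4 were lower, against 17.9%. After the libraries were rescaled by median ratios the split was 13 higher and 7 lower. All genes tested include those near the filter of 1 CPM, where few reads limit the test. In the same contrast edgeR called 66.9% of the 5101 genes it kept. The members were not compared with genes of like level. The median difference of the members was 0.17 on the log2 scale and that of all genes -0.16. The 8 libraries of each line did not overlap for 10 members that were higher in HepG2 and 2 that were lower, against 4.3% and 5.97% of all genes. In bulk RNA, a change in the share of cells that express a gene and a change in its RNA per cell cannot be told apart.

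**Figure D1:**
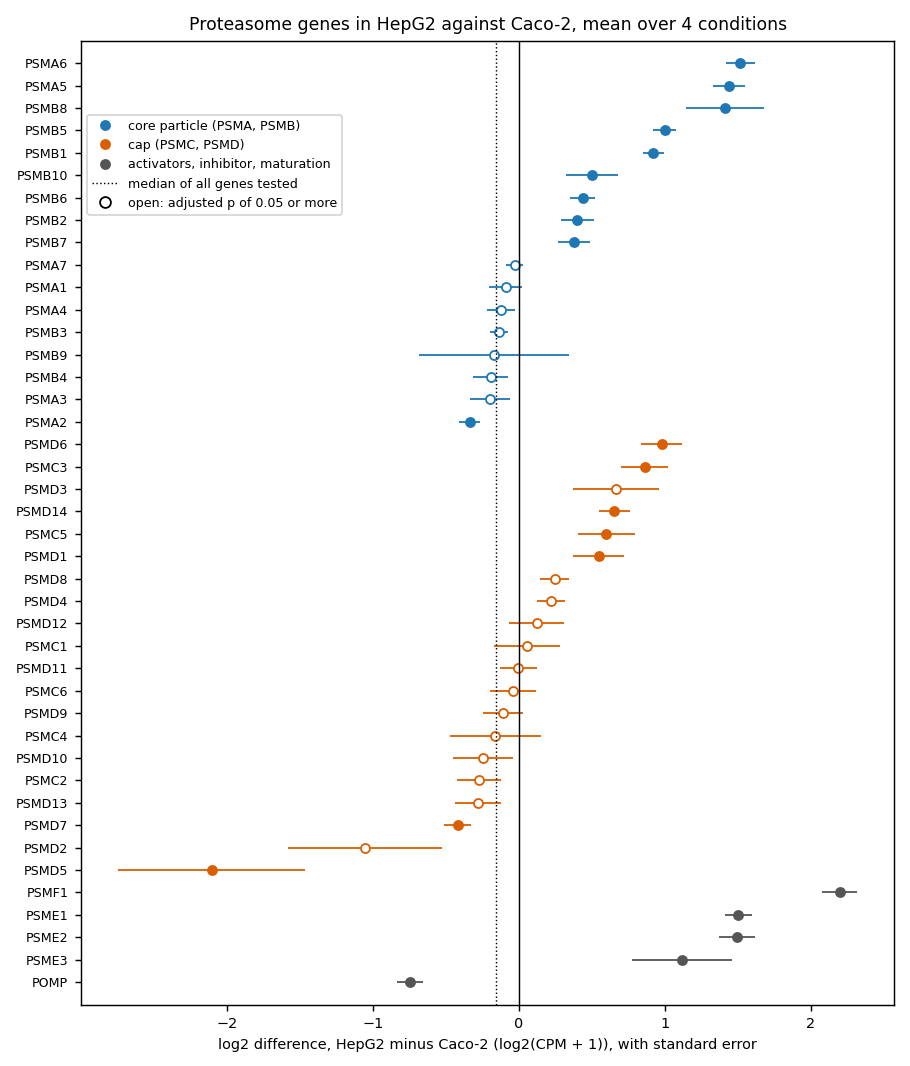
Log2 difference between HepG2 and Caco-2 (x axis, HepG2 minus Caco-2, log2(CPM + 1)) for the 42 tested proteasome genes (y axis), as the mean over 4 conditions with its standard error; filled points have an adjusted p under 0.05 and the dotted line is the median of all genes at -0.16. PSMF1 lies farthest to the right at 2.19 and PSMD5 farthest to the left at -2.10, and the core particle, cap and other genes each hold members on both sides of 0.

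Among the genes of the activators, the inhibitor and the maturation factor, 4 of 5 were higher in HepG2 and POMP was lower. PSMF1 (chromosome 20, 1113240 to 1189415, GRCh38) was at 45.8 to 87.6 CPM in Caco-2 (median 58.4) and at 218 to 403 CPM in HepG2 (median 259). No HepG2 library came near the Caco-2 range, and the difference was 2.19 ± 0.12 (SE) on the log2 scale (limma adjusted p = 7.41e-09), a 4.68-fold ratio of means. Its gene body overlaps other annotated genes on both strands. PSME1 was at 172 to 263 CPM in Caco-2 (median 199) and at 423 to 651 CPM in HepG2 (median 584), a log2 difference of 1.503 ± 0.095 (adjusted p = 2.75e-08). PSME2, which encodes the partner subunit of the same ring, was at 121 to 187 CPM (median 159.7) and at 282 to 537 CPM (median 442), a difference of 1.49 ± 0.12 (adjusted p = 4.76e-07). The lines did not overlap for either activator gene, and the lowest HepG2 library was for both the shallowest, with 21 and 14 reads. PSME3, whose product forms the nuclear activator, was low, at 2.46 to 19.2 CPM in Caco-2 and 9.42 to 47.6 CPM in HepG2, on 103 reads in all, and its difference of 1.12 ± 0.34 passed (adjusted p = 0.0228) with overlapping lines and was lost under 10 of 29 alternatives.

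PSME1 and PSME2 lie 4394 bases apart on chromosome 14, on opposite strands. Because these neighbours were higher together, and because PSMB10 is an immune subunit raised by interferon like them, the 200 bases before the RefSeq start of each (GRCh38.p14, each read on the gene's own strand, 5′ to 3′) are shown here, with capitals for the antioxidant response element TGACNNNGC and the interferon-stimulated response element (TTTC, any 2 bases, TTTC), searched on both strands.
PSME1, chr14:24135994-24136193, plus strand: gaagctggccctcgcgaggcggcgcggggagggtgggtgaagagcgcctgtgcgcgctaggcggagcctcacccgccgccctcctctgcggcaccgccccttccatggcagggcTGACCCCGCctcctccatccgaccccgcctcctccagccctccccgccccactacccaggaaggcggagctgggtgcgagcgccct
PSME2, chr14:24146611-24146810, minus strand: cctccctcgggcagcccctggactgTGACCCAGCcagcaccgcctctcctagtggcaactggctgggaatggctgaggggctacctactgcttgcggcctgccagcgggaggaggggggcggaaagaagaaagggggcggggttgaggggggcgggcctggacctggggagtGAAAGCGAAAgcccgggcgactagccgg
PSMB10, chr16:67936851-67937050, minus strand: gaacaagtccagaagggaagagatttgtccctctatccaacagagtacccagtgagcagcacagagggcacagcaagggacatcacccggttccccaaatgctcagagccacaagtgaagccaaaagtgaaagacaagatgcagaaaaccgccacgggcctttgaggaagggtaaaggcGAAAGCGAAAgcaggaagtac

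In 250 bases before the start, the interferon-stimulated response element was found in 4 of the 39 members with a RefSeq window (PSMA4, PSMB4, PSMB10 and PSME2) and in 3.71% of all 27305 genes with one. The other immune subunits, PSMB8 and PSMB9, had a window without this element, and their windows are not printed. The antioxidant response element was found in 10 of the 39 and in 13.2% of all genes, and among those 10 were PSME1 and PSME2. The matches in these 3 windows do not overlap, and a match describes letters in a window and not a bound factor.

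POMP had the smallest p of the members lower in HepG2. It was at 489.6 to 607 CPM in Caco-2 (median 555) and at 222 to 415 CPM in HepG2 (median 336), and every HepG2 library lay under every Caco-2 library. The difference was -0.74 ± 0.089 on the log2 scale (limma adjusted p = 1.71e-05).

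**Figure D2:**
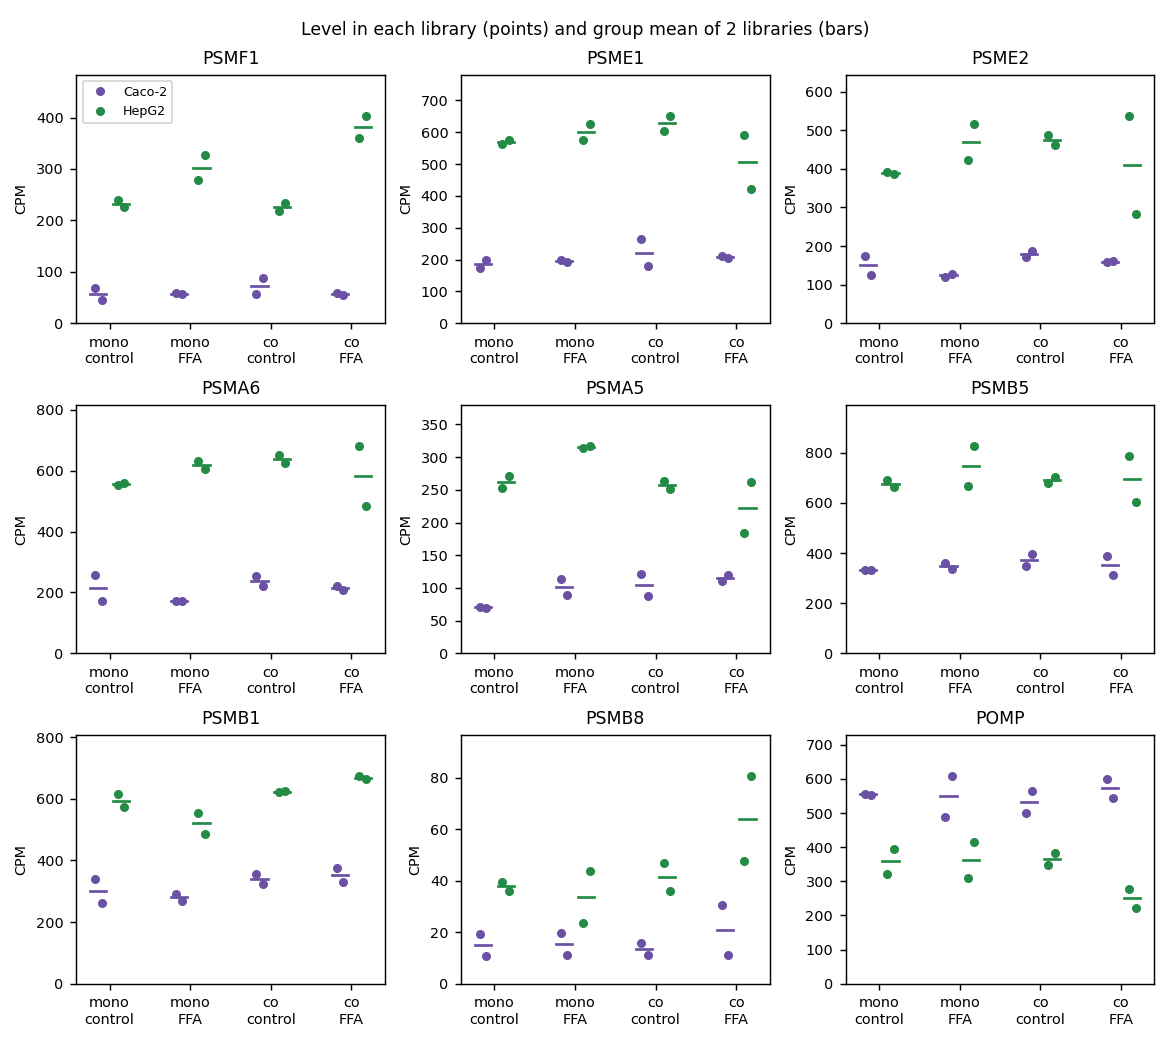
Level in CPM (y axis, from 0) of 9 proteasome genes in each library (points) and as group means of 2 libraries (bars), by culture and treatment (x axis), with Caco-2 in purple and HepG2 in green. PSMF1, PSME1, PSME2, PSMA6, PSMA5, PSMB5 and PSMB1 have all 8 HepG2 libraries above all 8 Caco-2 libraries, and POMP has them all below.

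The alpha ring was not shifted as a whole. PSMA5 and PSMA6 were higher in HepG2, PSMA2 was lower, and PSMA1, PSMA3, PSMA4 and PSMA7 did not pass, so that the median difference of the 7 tested alpha genes was -0.09. PSMA6 was at 172 to 257 CPM in Caco-2 (median 214) and at 484 to 679.8 CPM in HepG2 (median 614), a log2 difference of 1.52 ± 0.097 (limma adjusted p = 2.86e-08). PSMA5 was at 69.3 to 121 CPM (median 100.4) and at 184 to 317 CPM (median 262), a difference of 1.44 ± 0.11 (adjusted p = 2.08e-07). Neither gene overlapped between the lines. PSMA7 differed by -0.03 ± 0.059, with medians of 584 CPM in Caco-2 and 592 CPM in HepG2 and ranges that overlap widely. PSMA2, at -0.34 ± 0.074 (adjusted p = 0.00307), is named after its value was seen.

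Of the 7 constitutive beta genes 5 were higher in HepG2 and none lower, with a median difference of 0.40. PSMB5, which encodes the subunit with chymotrypsin-like activity, was at 313 to 396 CPM in Caco-2 (median 342) and at 604 to 826 CPM in HepG2 (median 686), a log2 difference of 1.00 ± 0.079 (limma adjusted p = 2.78e-07). PSMB1, a subunit without proteolytic activity, was at 261 to 377 CPM (median 327) and at 488 to 673 CPM (median 618), a difference of 0.92 ± 0.073 (adjusted p = 2.78e-07). For the other catalytic subunits the shift was smaller, 0.44 ± 0.084 for PSMB6, the caspase-like subunit (adjusted p = 0.00115), and 0.38 ± 0.11 for PSMB7, the trypsin-like subunit (adjusted p = 0.0152). PSMB6 did not overlap between the lines and PSMB7 did. The 5th gene was PSMB2 at 0.40 ± 0.11, named after its value was seen.

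The immune subunits were low next to their constitutive counterparts in both lines. PSMB8 was at 10.6 to 30.8 CPM in Caco-2 (median 13.6) and at 23.6 to 80.6 CPM in HepG2 (median 41.6), with a log2 difference of 1.41 ± 0.27 (limma adjusted p = 0.00102) and ranges that overlap. PSMB10 was at 19.3 to 48.2 CPM and 32.7 to 60.4 CPM, a difference of 0.50 ± 0.18 that passed at an adjusted p of 0.0496 and was lost under 19 of 29 alternatives. PSMB9, on 40 reads over the 16 libraries, was at 0 to 8.48 CPM and 0 to 6.80 CPM and did not pass. Per length of transcript, PSMB8 stood at a median of 3.77% of PSMB5 in Caco-2 and 5.18% in HepG2, PSMB9 at 1.47% and 0.923% of PSMB6, and PSMB10 at 22.6% and 23.3% of PSMB7. The division by length assumes that reads grow with transcript length, which was not tested in these libraries. PSMB8 and PSMB9 overlap on opposite strands of chromosome 6, and whether the counting used strand is not given in the sources used here.

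In the cap, the ring of ATPases showed 2 genes higher in HepG2 of 6, with a median difference of 0.01. PSMC3 was at 33.7 to 105 CPM in Caco-2 (median 63.3) and at 84.8 to 161 CPM in HepG2 (median 117), a log2 difference of 0.86 ± 0.16 (limma adjusted p = 9.15e-04). PSMC5 differed by 0.60 ± 0.19 (adjusted p = 0.0307), a call lost under 18 of 29 alternatives. PSMC1, PSMC2, PSMC4 and PSMC6 did not pass, at 0.06 ± 0.23, -0.27 ± 0.15, -0.16 ± 0.31 and -0.04 ± 0.155. PSMC1 has 13 annotated pseudogenes, which held 393 reads against its own 439, so its level is uncertain. Of the 3 other base subunits PSMD1, a scaffold, was higher in HepG2 at 0.55 ± 0.17 (adjusted p = 0.0286), and the ubiquitin receptor PSMD4 (0.22 ± 0.097, adjusted p = 0.104) and the scaffold PSMD2 (-1.05 ± 0.53, adjusted p = 0.154, on 168 reads) did not pass. The difference of PSMD1 had the opposite sign, -0.91, once all libraries were thinned to 49634 reads.

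In the lid, 2 of 8 genes were higher in HepG2 and 1 was lower, with a median difference of 0.18. PSMD6 was at 42.3 to 70.6 CPM in Caco-2 (median 58.0) and at 89.9 to 184 CPM in HepG2 (median 109.9), a log2 difference of 0.98 ± 0.14 (limma adjusted p = 1.11e-04). PSMD14, the enzyme that removes ubiquitin chains from the substrate, was at 63.6 to 85.2 CPM (median 76.6) and at 86.9 to 181 CPM (median 110.2), a difference of 0.65 ± 0.11 (adjusted p = 3.1e-04). The lines did not overlap for these 2 genes. PSMD7, the partner of PSMD14 in the lid, went the other way, from 267 to 336 CPM in Caco-2 to 188 to 266 CPM in HepG2, a difference of -0.42 ± 0.091 (adjusted p = 0.00287). Of the 3 chaperones of base assembly that carry PSMD names, PSMD5 was lower in HepG2 at -2.10 ± 0.64 (adjusted p = 0.023), with 76 reads in Caco-2 and 13 in HepG2 and a call lost under 15 of 28 alternatives, and PSMD9 and PSMD10 did not pass. PSMD5 and PSMD7 are named here after their values were seen.

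Set side by side, the core particle held 10 members that passed of 17 tested, 9 of them higher in HepG2, and the cap 7 of 20, with 5 higher. The median difference was 0.38 in the core and 0.03 in the cap. Both classes spread widely, from -0.34 to 1.52 in the core and from -2.10 to 0.98 in the cap. The ratio of the summed core CPM to the summed cap CPM was 2.30 to 2.54 in Caco-2 (median 2.40, n = 8) and 2.26 to 3.44 in HepG2 (median 3.01, n = 8), and the lines overlapped through the HepG2 libraries co-cultured with FFAs. Without those 2 libraries, 22 members still differed between the lines, 17 of them higher in HepG2, and in mono-culture without FFAs alone 9 did, 8 higher (PSMF1, PSME1, PSME2, PSMA5, PSMA6, PSMB1, PSMB5 and PSMD6) and POMP lower. Chromosome 14 carries 7 tested members, of which PSMA6, PSMB5, PSME1 and PSME2 were higher in HepG2. The median difference of the 193 protein-coding genes of that chromosome with a mean of at least 10 CPM was 0.36, against -0.02 for all 4973 such genes, and its part in these 4 differences was not tested.

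Genes that work with the proteasome were counted from lists of non-members. Of all genes tested, 12.5% were called higher in HepG2 and 17.9% lower, the shares to set beside each count. No list was tested as a set. Of 16 other proteasome partners 7 were higher in HepG2 and 1 was lower. The ones with the smallest p were TXNL1 (1.82 ± 0.17, limma adjusted p = 1.90e-06), the zinc finger gene ZFAND2A (1.10 ± 0.17, adjusted p = 1.92e-04) and the core assembly chaperone PSMG4 (1.00 ± 0.20, adjusted p = 0.00181). The chaperone PSMG1 (0.50 ± 0.19, adjusted p = 0.0657) and the activator PSME4 (-0.16 ± 0.56) did not pass. Of 10 tested genes around NFE2L1, the transcription factor that drives proteasome genes when proteasome activity falls, 3 were higher and 1 was lower. NFE2L1 itself did not pass (-1.19 ± 0.50, limma adjusted p = 0.0883) and had 0 reads in its lowest HepG2 library. NGLY1 (1.84 ± 0.38), VCP (1.12 ± 0.28) and MAFF (-1.94 ± 0.50) did pass. Their summed reads in Caco-2 and HepG2 were 27 and 75, 58 and 102, and 48 and 13. Of 8 genes that supply ubiquitin 1 was higher and 2 were lower, among them RPS27A by -0.36 ± 0.046 (adjusted p = 3.44e-05). Of 10 tested genes of interferon response and MHC class I processing 2 were higher, among them TAP2 (1.83 ± 0.38, adjusted p = 0.00217), and B2M was lower (-0.67 ± 0.064, adjusted p = 2.15e-06). TAP2 rests on only 2 reads over the 8 Caco-2 libraries and 11 over the 8 of HepG2.

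With FFAs, the balance of core to cap moved in HepG2. In mono-culture the ratio of summed core to summed cap CPM was 3.12 and 3.44 in the control libraries and 2.90 and 2.80 in the FFAs libraries. In co-culture it was 3.28 and 3.28 in the controls and 2.26 and 2.46 with FFAs. The last 2 values rest on 727 and 229 core reads and 321 and 93 cap reads, the fewest in HepG2. The FFAs libraries were below the controls in both cultures. On the log2 scale the difference was -0.20 in mono-culture and -0.47 in co-culture, with a pooled SD between replicates of 0.068, and as the sums were set up after earlier results were known they carry no test. In Caco-2 the same differences were -0.06 and 0.07 with a pooled SD of 0.059, and the libraries with and without FFAs overlapped in mono-culture. On the deposited scale the sum of the cap was 1462 ± 62.4 CPM (SD, n = 2) in mono-cultured controls, 1788 ± 177 with FFAs, 1556 ± 60.3 in co-cultured controls and 2028 ± 218 with FFAs. The sum of the core was 4788 ± 125, 5095 ± 383, 5103 ± 195 and 4778 ± 232 CPM in the same order. The ratio does not depend on scaling each library by a single factor. Cap transcripts are longer, with a median of 1950.5 bases against 1023 in the core, and the mean transcript length behind the reads moved with the ratio, from 2003 ± 33.5 to 2073 ± 11.9 bases with FFAs in mono-culture and from 1975 ± 10.5 to 2257 ± 51.7 bases in co-culture. Protein-coding genes under 1000 bases changed by a median of -0.25 in co-culture with FFAs and those of 2000 to 4000 bases by 0.42 (-0.04 and 0.20 in mono-culture). The part of length in the ratio was not tested.

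**Figure D3:**
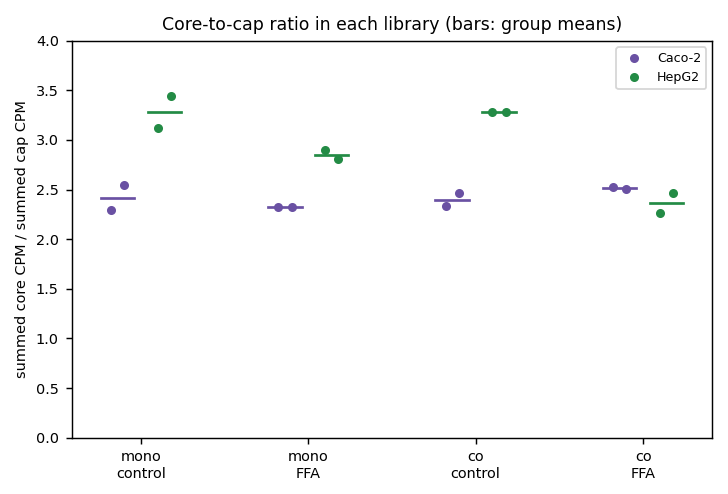
Summed CPM of the 19 core genes over summed CPM of the 20 cap genes (y axis, from 0) in each library (points), with group means of 2 libraries (bars), by culture and treatment (x axis). HepG2 libraries (green) lie at 3.12 to 3.44 without FFAs and at 2.26 to 2.90 with them, and Caco-2 libraries (purple) at 2.30 to 2.54 throughout.

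Gene by gene, no member passed in HepG2 with FFAs, against 0% of the 14430 genes tested in mono-culture, 0% in co-culture and 0.0762% in the average over both cultures. Unadjusted p-values were under 0.05 for 4 members in mono-culture, 8 in co-culture and 7 in the average, against 6.26%, 15.9% and 13.8% of all genes. On the whole reads, edgeR's quasi-likelihood test called 0, 2 and 2 members, against 0.744%, 7.99% and 13.3% of the 4030 genes it kept. DESeq2 called 0, 3 and 1, against 2.42%, 15.9% and 14.3% of the 1281, 1841 and 2400 genes to which it gave an adjusted p. Of the 20 cap genes 16 had a value above 0 in mono-culture, 16 in co-culture and 18 in the average, with medians of 0.26, 0.34 and 0.32. Of the 17 tested core genes it was 10, 4 and 7, with medians of 0.07, -0.15 and -0.02. Of all genes 53%, 37.5% and 47.2% lay above 0, with medians of 0.06, -0.26 and -0.07. These counts depend on the scaling. After rescaling by median ratios 12, 8 and 11 cap genes and 5, 1 and 0 core genes lay above 0, with cap medians of 0.11, -0.069 and 0.040, and after quantile normalization 12, 9 and 10 cap genes and 8, 5 and 3 core genes did. The cap in co-culture thus turned from mostly above to mostly below 0, while its median stayed above that of the core.

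The 8 lid genes were all above 0 in both cultures, with a median of 0.35 in mono-culture and 0.55 in co-culture. After rescaling by median ratios or quantile normalization 5 of 8 were above 0 in each culture. The median of all genes was then 0 and 0.031 in mono-culture and -0.45 and -0.042 in co-culture, and the cause of the lower count was not tested. PSMD14 was at 88.2 and 90.9 CPM in mono-cultured controls and at 118 and 138 CPM with FFAs, and at 86.9 and 103 CPM in co-cultured controls and at 177 and 181 CPM with FFAs. All 4 FFAs libraries were above all 4 controls, as for 4.16% of all genes. The change was 0.51 ± 0.22 in mono-culture, 0.92 ± 0.22 in co-culture and 0.71 ± 0.155 in the average (limma adjusted p = 0.147). The average passed by edgeR (0.52, adjusted p = 0.046), and by limma without replicate 1 of the co-cultured controls (0.65, adjusted p = 0.0282) or without replicate 1 of the co-cultured FFAs libraries (0.72, adjusted p = 0.0244). It did not pass by DESeq2 (0.44, adjusted p = 0.261) or under the other alternatives, where the adjusted p reached 0.554. PSMD8, a scaffold subunit of the lid, was at 114 and 131 CPM and then 170 and 186 CPM in mono-culture and at 163 and 164 CPM and then 190 and 222 CPM in co-culture. Its average change was 0.43 ± 0.14 (adjusted p = 0.238), again with no overlap over the 8 libraries. PSMD12 and the base subunit PSMD1 also had all FFAs libraries above all controls, and PSMD11 was separated in co-culture, at 74.0 and 86.3 CPM in controls and 122 and 161 CPM with FFAs (0.81 ± 0.25, adjusted p = 0.233). PSMD4 (0.48 ± 0.205) and the ATPase PSMC2 (0.85 ± 0.36) were among the 3 members with the smallest p in mono-culture, at an adjusted p of 0.796 each. PSMC2 was at 98.2 and 104 CPM with FFAs in mono-culture, above all other HepG2 libraries, and at 40.3 and 74.8 CPM with FFAs in co-culture.

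**Figure D4:**
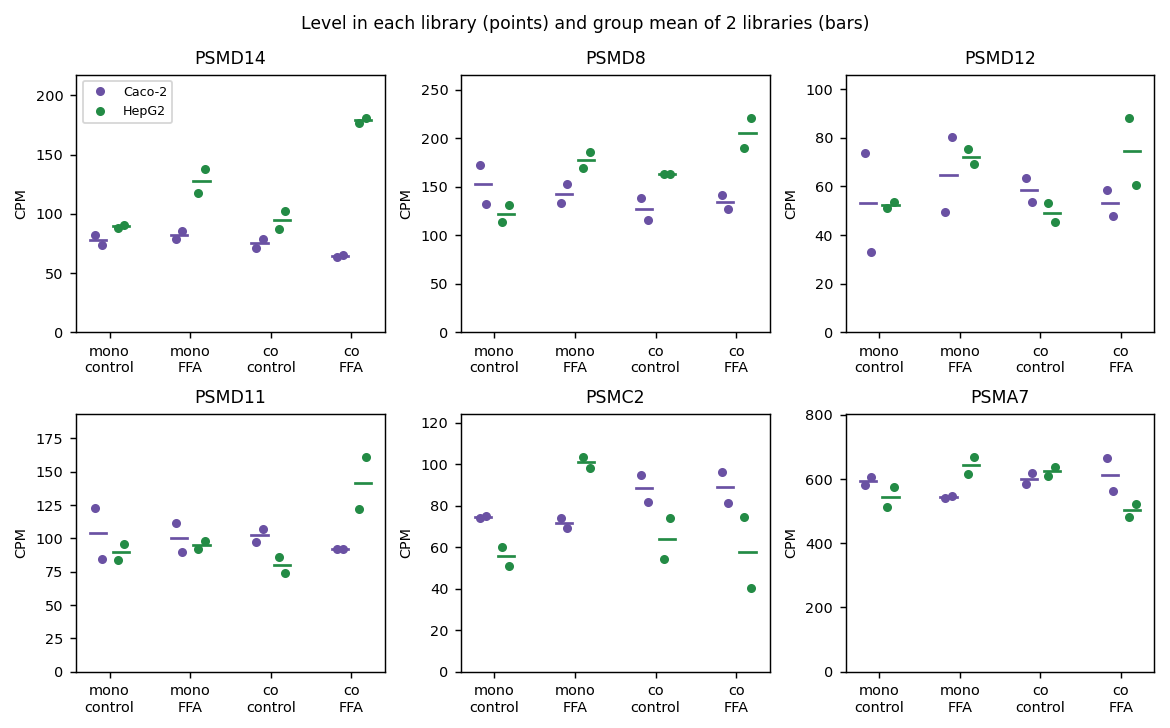
Level in CPM (y axis, from 0) of 4 lid genes, the ATPase gene PSMC2 and the alpha gene PSMA7 in each library (points) with group means of 2 libraries (bars), by culture and treatment (x axis), Caco-2 in purple and HepG2 in green. PSMD14 in HepG2 runs from 86.9 to 103 CPM without FFAs to 118 to 181 CPM with them, and stays between 63.6 and 85.2 CPM in Caco-2.

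PSMF1 was the member with the smallest p in the HepG2 average. It was at 226 and 239 CPM in mono-cultured controls, 278 and 327 CPM with FFAs, 218 and 234 CPM in co-cultured controls and 360 and 403 CPM with FFAs. The FFAs libraries did not overlap the controls, and the average change was 0.56 ± 0.12 (limma adjusted p = 0.134; 0.023 without replicate 1 of the co-cultured FFAs libraries). PSME3 in co-culture was at 9.52 and 9.66 CPM without FFAs and at 40.3 and 47.6 CPM with them, a change of 2.08 ± 0.51 (adjusted p = 0.158), but the FFAs values rest on 2 and 7 reads. POMP in co-culture was at 349 and 382 CPM and then 222 and 279 CPM, a change of -0.55 ± 0.205 (adjusted p = 0.278), which edgeR called at -0.71 (adjusted p = 0.0496) and DESeq2 at -0.86 (adjusted p = 0.0274). PSMA7 in co-culture was at 610 and 637 CPM and then 483 and 524 CPM, a change of -0.31 ± 0.13 (adjusted p = 0.296), which edgeR called at -0.58 (adjusted p = 0.0401) and DESeq2 at -0.71 (adjusted p = 0.00939). In mono-culture PSMA7 was higher with FFAs, at 617 and 669 CPM against 513 and 575 CPM, and POMP overlapped. The catalytic genes PSMB5, PSMB6 and PSMB7 did not pass in any HepG2 contrast, and neither did PSME1, PSME2 or the immune subunits by limma. DESeq2 called PSME1 lower with FFAs in co-culture at -0.60 (adjusted p = 0.041).

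These co-culture values lean on shallow libraries. Without replicate 1, which leaves the library of 49634 reads alone for that group and assumes that it varies like the other groups, limma called 9 members with FFAs in co-culture. PSMA3, PSMC4, PSMD2, PSME1 and PSME2 were lower, and PSMD11, PSMD14, PSME3 and PSMF1 higher. In that library PSMC4 rests on 1 read, PSMD2 on 0 and PSME3 on 2. The same omission gave 6 calls in the average over cultures, 7 for co-culture with FFAs and 2 for co-culture averaged over treatments.

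**Figure D5:**
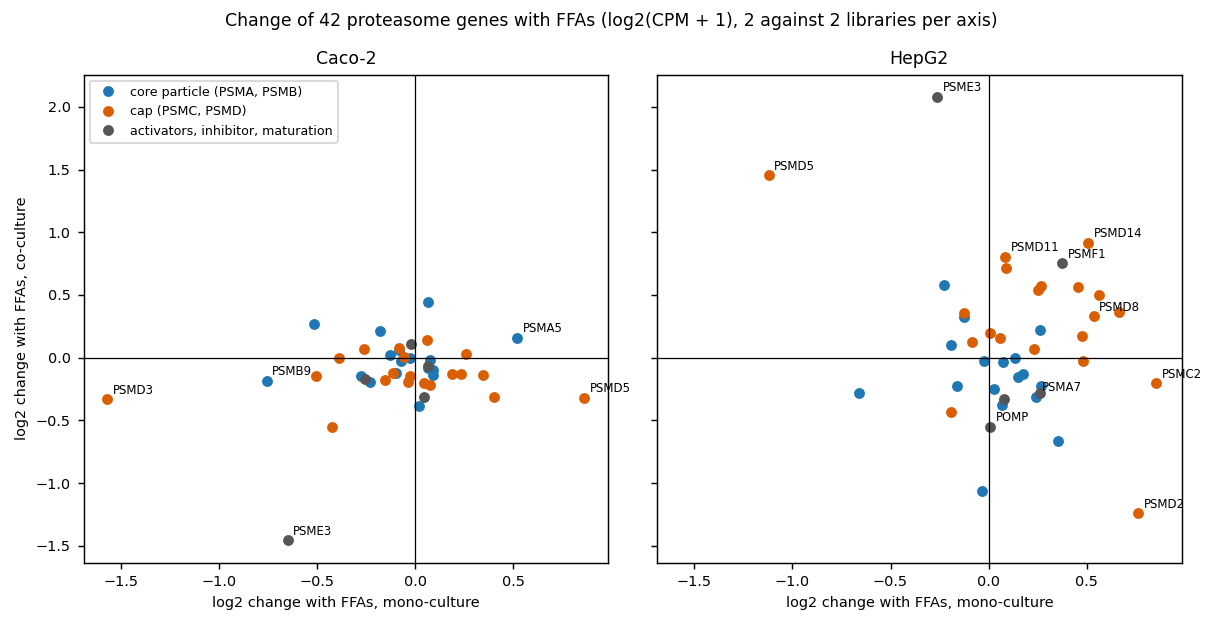
Log2 change of the 42 tested proteasome genes with FFAs in mono-culture (x axis) and in co-culture (y axis), in Caco-2 (left) and HepG2 (right), each from 2 against 2 libraries. In HepG2 most cap genes (orange) lie above the zero line of the y axis, with 16 of 20 above 0 in co-culture (8 after rescaling by median ratios), while 4 of 17 core genes (blue) do (1 after rescaling); PSMD5, PSMD2 and PSME3 at the edges rest on few reads.

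With co-culture in HepG2, no member passed without FFAs (0% of all genes), with FFAs (0%), in the average over treatments (0%) or in the test for any difference among the 4 groups (0%). Unadjusted p-values were under 0.05 for 0, 8, 2 and 4 members, against 2.61%, 14.7%, 7.72% and 12.2% of all genes. By edgeR no member was called (0.347%, 0.422%, 1.17% and 8.76% of the 4030 genes it kept). DESeq2 called 0, 3, 0 and 2. Its shares were 0.435%, 11.5%, 2.39% and 18.4% of the 1841, 1002, 1841 and 1841 genes to which it gave an adjusted p. The core-to-cap ratio differed between co-culture and mono-culture by 0.0021 on the log2 scale without FFAs, by -0.27 with FFAs and by -0.14 in the average. The SD between replicates was 0.068 pooled over the 4 groups and 0.085 in co-culture with FFAs alone. The members with the smallest p without FFAs were PSMD4 (0.47 ± 0.205), PSMD8 (0.42 ± 0.20) and PSMA7 (0.20 ± 0.13). In the average they were PSMB1 (0.22 ± 0.086, adjusted p = 0.631), with all 4 co-culture libraries above all 4 mono-culture libraries against 1.12% of all genes, PSMA3 (-0.55 ± 0.24) and PSMD8 (0.31 ± 0.14, -0.089 after thinning to 49634 reads). With FFAs they were PSME3 (1.66 ± 0.51), PSMA3 (-1.06 ± 0.33), at 259 and 346 CPM in mono-culture and 204 and 101 CPM in co-culture, and PSMB1 (0.36 ± 0.12, adjusted p = 0.249).

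In Caco-2 no member passed in any contrast. With FFAs the background was 0.00647% of 15454 genes in mono-culture, 0% in co-culture and 0% in the average, and unadjusted p-values were under 0.05 for 2, 1 and 0 members, against 5.8%, 4.88% and 4.85% of all genes. The members with the smallest p were PSMD3 (-1.57 ± 0.65, on 116 reads over all libraries), PSMA5 (0.52 ± 0.23) and PSMC3 (-0.51 ± 0.32) in mono-culture, PSMA4 (-0.38 ± 0.16), PSME3 (-1.46 ± 0.78) and PSMD10 (-0.55 ± 0.33) in co-culture, and PSMA5 (0.34 ± 0.16), PSMD10 (-0.49 ± 0.23) and PSMD3 (-0.95 ± 0.46) in the average, with adjusted p-values of 0.829 to 0.862. Of the 8 lid genes 4 lay above 0 in mono-culture and 1 in co-culture, against 51.2% and 48.9% of all genes.

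With co-culture in Caco-2, all 17 tested core genes were above 0 in the average over treatments (median 0.20), as were 11 of 20 cap genes (median 0.07), while 59.6% of all genes were above 0 (median 0.14). After rescaling by median ratios 11 core and 9 cap genes were above 0, and after quantile normalization 14 and 10. Within the cap, 1 of the 8 lid genes was above 0 (median -0.022), and the count was 1 again after either rescaling. No member passed in the average (0.453% of all genes), without FFAs (0.0971%), with FFAs (0.0971%) or in the test for any difference (0.155%). Unadjusted p-values were under 0.05 for 8, 3, 3 and 3 members, against 11.8%, 10.3%, 7.78% and 8.17% of all genes. Neither edgeR (0.109% to 8.47% of the 4595 genes it kept) nor DESeq2 called a member in any Caco-2 contrast. The DESeq2 shares were 0% to 8.41% of the 773 to 15454 genes to which it gave an adjusted p. PSMD4, the ubiquitin receptor, was at 101 and 104 CPM in mono-cultured controls, 106 and 129 CPM in mono-culture with FFAs, 153 and 156 CPM in co-cultured controls and 136 and 148 CPM in co-culture with FFAs. Its average change was 0.43 ± 0.13 (limma adjusted p = 0.205), and its 4 co-culture libraries lay above its 4 mono-culture libraries, as for 4.25% of all genes. After thinning to 49634 reads the average was -0.029 and the change without FFAs -0.25. The next were PSMC3 (0.57 ± 0.22, adjusted p = 0.348) and PSMD10 (0.57 ± 0.23, adjusted p = 0.365). Without FFAs PSMD4 (0.59 ± 0.19), PSMA4 (0.40 ± 0.16) and PSMA5 (0.54 ± 0.23) had the smallest p, and with FFAs PSMB10 (0.82 ± 0.34), PSMC3 (0.75 ± 0.32) and PSMD13 (0.58 ± 0.24).

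The difference between the lines was also tested directly. For the FFAs effect, averaged over cultures, no member passed, against 0.0912% of 17544 genes, and unadjusted p-values were under 0.05 for 6 members, against 11.4%. All 8 lid genes were above 0 in this difference (HepG2 minus Caco-2, median 0.48) and 17 of 20 cap genes were, against 7 of 17 core genes and 44.1% of all genes. After rescaling by median ratios it was 7 lid, 14 cap and 1 core genes, and after quantile normalization 7, 14 and 7. PSMD14 led at 0.78 ± 0.21 (limma adjusted p = 0.16), followed by PSME3 (1.96 ± 0.68) and PSMF1 (0.70 ± 0.25). PSMD14 passed in 9 of the 16 fits that each left out 1 library, with adjusted p-values from 0.00728 to 1 over all settings, the highest after thinning, and was called by neither edgeR (0.46, adjusted p = 0.312) nor DESeq2 (0.52, adjusted p = 0.219). POMP was called by edgeR (-0.61, adjusted p = 0.0241), against 7.92% of the 5101 genes it kept. DESeq2 also called it (-0.56, adjusted p = 0.0305), against 21.7% of the 1558 genes to which it gave an adjusted p. For the co-culture effect no member passed, against 0.0969% of all genes, and unadjusted p-values were under 0.05 for 4 members, against 9.72%. The smallest p belonged to PSMA5 (-0.64 ± 0.22, limma adjusted p = 0.358), PSMD8 (0.49 ± 0.20) and PSMD14 (0.48 ± 0.21, -0.32 after thinning). PSMA5 was called by edgeR at -0.78 (adjusted p = 0.0408, against 2% of the 5101 genes it kept). DESeq2 did not call PSMA5 (1.71% of the 2918 genes to which it gave an adjusted p).

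Of the partner genes, NFE2L1 in HepG2 was at -2.46 ± 1.29 with FFAs in co-culture and 0.78 ± 1.29 in mono-culture, and PSMG1 at 1.32 ± 0.44 (adjusted p = 0.252) and 0.10 ± 0.44. B2M was at 0.18 ± 0.15 and 0.06 ± 0.15, and PSME4 at -0.84 ± 1.43 in both, none of them past the threshold. The fewest reads in a HepG2 library were 0 for NFE2L1 and PSME4, 2 for PSMG1 and 48 for B2M. The changes of NFE2L1, PSME4 and PSMG1 thus lean on libraries with few reads.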

How the data were processed

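Polyadenylated RNA of 16 libraries was measured by Nanopore sequencing of PCR-amplified cDNA. The submitters' processing notes name minimap2 2.22 and GRCh38. The study's text describes STAR and RSEM, without saying for which reads. The deposited values are named TPM, but per the file headers and values each library's values are whole multiples of 1 step (99.3% to 100% whole, tolerance 0.05 read), so they were taken as CPM, the authors' reads scaled to 1000000 per library. The design had assumed TPM and its tests were kept.

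The members, lists and markers were chosen with earlier results of these data known. The filter asked for a group mean of 1 CPM or more, and log2(CPM + 1) was fitted with limma 3.58.1 (R 4.3.3, trended prior) on group means, in each line (15454 and 14430 genes, 8 libraries) and over both lines (17544 genes, 16 libraries). P-values were adjusted by Benjamini-Hochberg over all genes tested, threshold 0.05. edgeR 4.0.16 and DESeq2 1.42.0 on whole reads recovered from the steps were alternatives, with 4030 genes in the edgeR fit of HepG2 and 4595 in that of Caco-2. In the line contrast edgeR called 66.9% of the 5101 genes it kept and DESeq2 36% of the 11421 genes to which it gave an adjusted p. Scripts were tested on simulated data.

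Named were up to 10 members that passed per contrast, the 3 with the smallest p, the catalytic and immune beta genes, the ATPases, PSMA7, PSMD1, PSMD2, PSMD4, PSMD14 and the 5 others, and up to 3 genes per non-member list that passed, with NFE2L1, PSMG1, PSME4 and B2M. Any other member named was chosen after its values were seen. Some genes of the non-member lists are not reported here. Transcript lengths are those of the GENCODE 44 canonical transcripts. Limits from counts cover counting error only (3 reads). Replicates of a group differed by more than sampling noise (chi-square per degree of freedom 1.52 to 2.85).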

Additional observations from a re-analysis of the deposited data

Results flagged for a closer look

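For 15 combinations of member and contrast, both libraries of one condition lay on one side of both libraries of the other in HepG2 and on the opposite side in Caco-2. None of these differences was tested at this level, each rests on 2 against 2 libraries in each line, and the list was read off 42 members in 4 contrasts. They are 8.93% of the member and contrast pairs, against 6.54% over the 12340 genes tested in both lines, with 4.76% against 4.64% for FFAs in mono-culture, 11.9% against 9.25% for FFAs in co-culture, 2.38% against 5.42% for co-culture without FFAs and 16.7% against 6.86% for co-culture with FFAs. The values below are the HepG2 change minus the Caco-2 change on the log2 scale.

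With FFAs in mono-culture they were PSMA7 at 0.37, from 0.24 in HepG2 and -0.13 in Caco-2, and PSMD13 at 1.05, from 0.66 and -0.39. With FFAs in co-culture they were mostly cap genes. The lid gene PSMD14 was at 1.13 (0.92 in HepG2 and -0.22 in Caco-2), the lid gene PSMD11 at 0.95 (0.81 and -0.14), the chaperone PSMD9 at 0.68 (0.50 and -0.18) and the ubiquitin receptor PSMD4 at 0.30 (0.17 and -0.13). PSME3 was at 3.54 (2.08 and -1.46), on 2 and 7 reads in the HepG2 libraries with FFAs.

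For co-culture without FFAs PSMD7 was at -0.25 (-0.07 in HepG2 and 0.18 in Caco-2). For co-culture with FFAs PSMA3 was at -1.31 (-1.06 and 0.26), PSMC2 at -1.17 (-0.87 and 0.30), PSMD13 at -0.87 (-0.29 and 0.58) and PSMA7 at -0.52 (-0.35 and 0.17). In the other direction were PSMD14 at 0.83 (0.49 and -0.34), PSMD6 at 0.79 (0.41 and -0.38) and PSMD9 at 0.44 (0.27 and -0.17). The contrasts with FFAs in co-culture and for co-culture with FFAs share the 2 shallow HepG2 libraries.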

How the results depend on the processing

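Of the 22 members that differed between the lines, 9 passed under all 29 alternatives (PSMF1, PSME1, PSME2, PSMA5, PSMA6, PSMB1, PSMB5, PSMD6 and POMP) and 13 were lost under at least 1, PSMB10 under 19, PSMC5 under 18, PSMD5 under 15 of 28 and PSME3 under 10. The count was 18 to 27 when 1 library was left out, 10 after thinning to 49634 reads and 9 in mono-culture controls alone, alternatives with fewer reads and fewer samples. With FFAs in co-cultured HepG2 the count of 0 became 2 by edgeR, 3 by DESeq2, 1 (PSMD1) after thinning, and 0 to 9 when 1 library was left out. For co-culture with FFAs it became 3 by DESeq2 and 0 to 7, for FFAs averaged over cultures 2 by edgeR, 1 by DESeq2 and 0 to 6, for co-culture averaged over treatments 0 to 2, and for any difference 2 by DESeq2, 1 after thinning (PSMD1) and 0 to 2. The highest count came each time without replicate 1 of co-cultured HepG2 with FFAs. In Caco-2 co-culture averaged over treatments gave 0 to 1 (PSME2, without replicate 1 of the mono-cultured controls). The difference between lines gave 1 by edgeR, 1 by DESeq2 and 0 to 1 for FFAs, and 1 by edgeR and 0 to 3 for co-culture, where PSMA3, PSMC2 and PSMD2 were called without replicate 1 of co-cultured HepG2 with FFAs. Where no value above shows a cause, the cause was not tested.

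The log2 core-to-cap difference with FFAs in mono-cultured Caco-2 was 0.23 after thinning (-0.06 in the report) and -0.13 to 0.018 when 1 library was left out. In mono-cultured HepG2 it was -0.43 from medians over members and -0.27 to -0.13, and in co-cultured HepG2 -0.53 to -0.41. Between the lines it was 0.040 from medians over members and 0.14 after thinning. After thinning 5 named values changed sign, PSMD4 for co-culture in Caco-2 without FFAs (-0.25) and averaged (-0.029), PSMD8 for co-culture averaged in HepG2 (-0.089), PSMD1 between the lines (-0.91) and PSMD14 in the difference between lines for co-culture (-0.32). With a replicate block 21 members differed between the lines, and no other count of calls moved. Same-numbered libraries deviated with correlations of -0.017 to 0.032 over all genes and of -0.10 to 0.29 over genes of at least 100 CPM (-0.017 to 0.29 in Caco-2), so not every pair was above 0.1 and the numbers were not taken as pairs. Depth limits the low members most, since 1 read stood for up to 20.1 CPM.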
